A study of Oryctolagus cuniculus with 54 samples.

Results

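The 150 genes described here were those whose lung RNA level was alike at gestation days 20 and 23 (F20 and F23, the pseudoglandular phase) and lower in the saccular and alveolar groups (F28, T31, T37 and T42) of the same sequencing run. They were chosen from measured values. Within a run, the level of a gene in a group was the mean of log2(CPM + 1), where CPM is the gene's count per 1000000 counts of its library. A gene met the limits if F20 and F23 differed by less than 0.5 in run 3, if its F20 level was at least 2.6 (about 5.06 CPM), and if F25 and F29 differed by less than 0.5 in run 1. Of 29587 genes in the table, 8768 reached the F20 level and 6046 met all limits. These 6046 genes were ranked by the score, the lower of F20 and F23 minus the highest of F28, T31, T37 and T42 in run 3, and the 150 at the top are the members. The deposited table lists Ensembl identifiers without gene symbols, and 0 of the 29587 were found in the RefSeq gene table of assembly mOryCun1.1. Members are therefore called by their rank, and 2 of them also by identifier.

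In the pseudoglandular phase the lung is a tree of branching epithelial tubes in a dense mesenchyme, and its progenitor cells divide rapidly. In the canalicular phase that follows, the distal airways widen, capillaries approach the epithelium and the alveolar epithelial cells begin to differentiate. Alveoli form later, as crests grow from the walls between air spaces and divide these spaces, while the walls thin.

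Lung RNA of 45 New Zealand White rabbits was read in 54 libraries and 3 runs with a 3′ end kit, so that a count does not scale with transcript length. Fetuses were taken by C-section at F20 and F23 (4 each) and at F25, F27, F28 and F29 (3 each). Term pups were born on day 31 and sampled at birth (T31, 6) or after 4, 6 and 11 days in room air with their mothers (T35, 3; T37, 4; T42, 3). Preterm pups were delivered by C-section on day 28 and kept in room air for 1 h (P0), 3 days (P3) or 7 days (P7), 3 each, with no added oxygen. All labels name the right lung, whereas the methods describe whole lungs at F20 and F23, so stage and the part of the lung taken cannot be told apart there. F20 and F23 were sequenced only in run 3, and F27 and F29 only in run 1. Totals were between 5771693 and 8073755 counts per library (median 7090332), and 0 pairs of libraries were identical. In bulk lung, fewer cells of a type and less RNA per cell cannot be told apart.

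**Figure D1:**
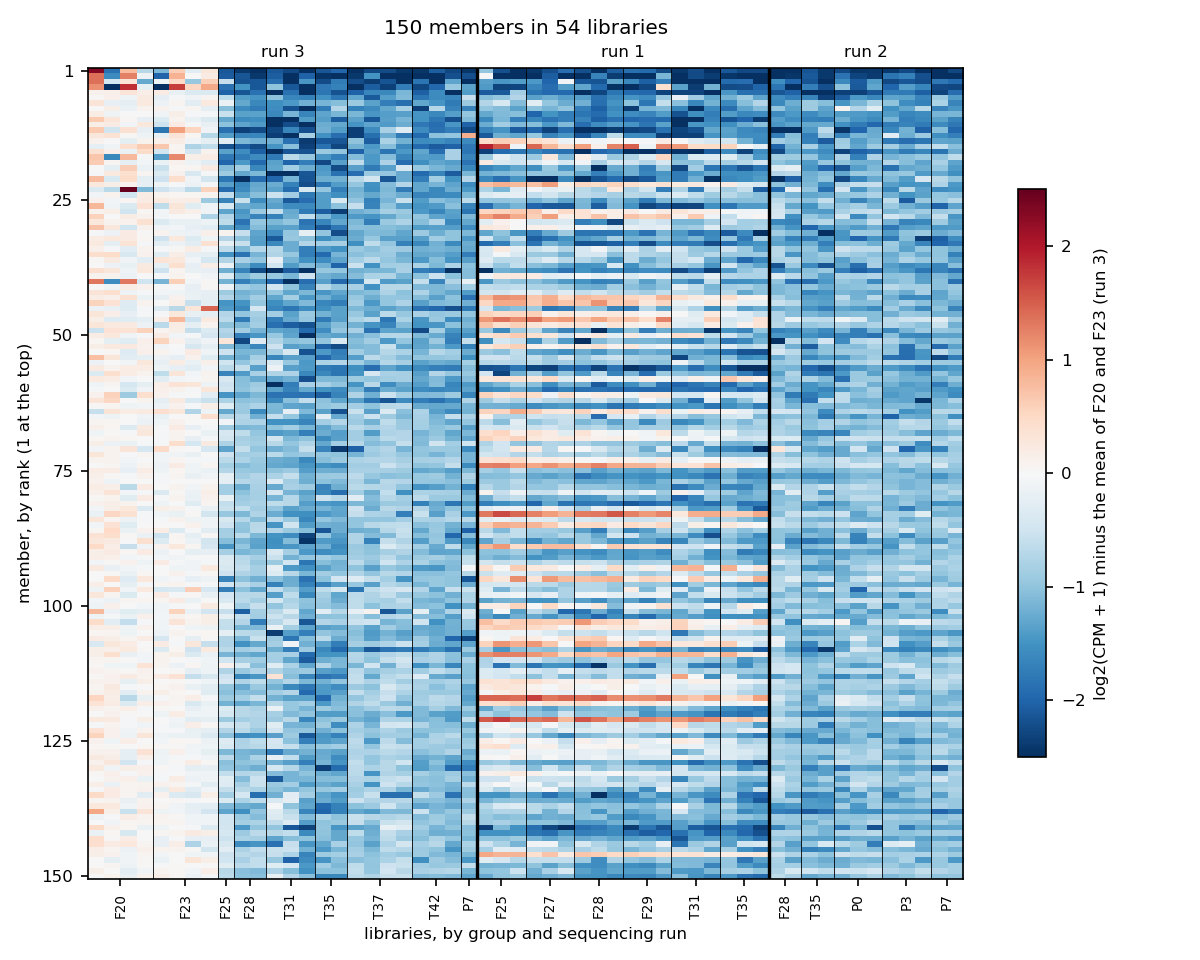
Level of the 150 members (rows, by rank) in the 54 libraries (columns, by run and group), as log2(CPM + 1) minus the mean of F20 and F23 in run 3; red is higher and blue lower, with colours limited at 2.5. Run 3 turns blue to the right of F23, while run 1 holds red rows in which most libraries of the run were high.

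The members stepped down after F23, but most did not go silent. The score, in log2 units, had a median of 0.74, so that at the median the highest later group held 59.9% of the level (on CPM + 1) of the lower pseudoglandular group. It ran from 0.64 to 2.13, and only 20 of the 150 members scored at least 1 and 4 at least 1.5. The score used library totals. TMM normalisation factors were 0.996 to 1.103 at F20 and F23 and 0.827 to 0.979 in the later run 3 libraries of the rule. Scaling by them would make these falls smaller. The highest later group still held at least 10 CPM for 101 members and at least 100 CPM for 30. All later groups of the rule were under 1 CPM for 3 members and under 3 CPM for 18. They are therefore described here as genes that step down. At the edge of the list the last 2 members scored 0.640 and 0.639 and the next 2 genes 0.639 and 0.637, so that the list ends without a gap. Among all 6046 genes the median score was -0.14, and 2274 scored above 0.

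Relative to F20 in run 3, the median member differed by -1.10 at F28, -1.19 at T31, -0.99 at T37 and -1.18 at T42. Over all 6046 genes these medians were -0.12, -0.25, -0.14 and -0.23. From F20 to F23 the median member differed by -0.11, within the limit of the rule. The later groups showed no steady decline: T37 was the highest of them for 57 members and F28 for 53, and T31 was the lowest for 60 and T42 for 52. The T31 library of animal 18 had the lowest normalisation factor and a member share of 0.744% of counts; without it T31 was the lowest for 48 members. All 8 pseudoglandular libraries lay above all 12 later libraries of the rule for 116 members, against 8.5% of the 6046 genes, and for 118 without that library. The rule used these values, so that they describe the choice.

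Expression at F20 spanned 5.09 to 1881 CPM, with a median of 46.97. The 5 most abundant members held 30.3% of the members' CPM at F20 and the 20 most abundant 58.9%. Together the members took 1.98% ± 0.10 (SD, n = 4) of the counts at F20 and 1.93% ± 0.07 (n = 4) at F23. In run 3 the share was 1.34% in the F25 library, 1.03% ± 0.01 (n = 2) at F28, 0.99% ± 0.22 (n = 3) at T31, 0.84% ± 0.03 (n = 2) at T35, 1.04% ± 0.10 (n = 4) at T37 and 0.88% ± 0.02 (n = 3) at T42. The share at F25 lay between the pseudoglandular libraries and the later ones.

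**Figure D2:**
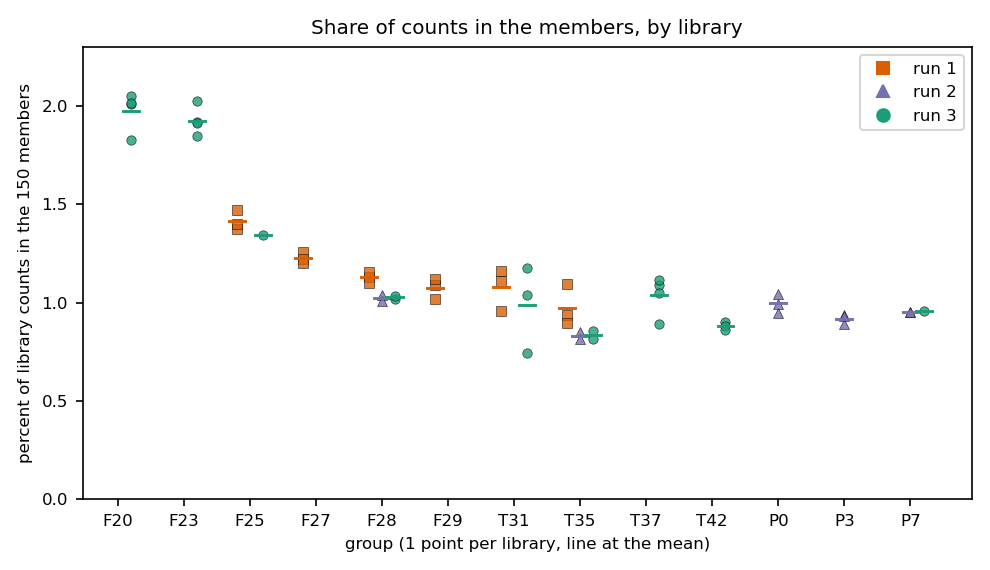
Percent of a library's counts that fell in the 150 members, for each library (points, shaped and coloured by run) with the mean of each group and run (lines). F20 and F23 sit at 1.83% to 2.05%, and every other library lies below 1.5%.

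The members at the top of the list had low counts and varied between animals. The member at rank 1 (ENSOCUG00000017113) had 28.9, 0.684, 9.56 and 2.76 CPM at F20 and 1.77, 8.37, 4.00 and 6.41 CPM at F23. In the other libraries of run 3 it had at most 0.534 CPM. Its lowest pseudoglandular library rested on 5 counts and its highest on 186, so that the F20 animals spanned almost the whole distance to the later groups. Rank 4 held the member that spread most, with 26.3, 0.137, 42.9 and 9.51 CPM at F20 and 1.18, 39.7, 16.7 and 22.7 CPM at F23. Animal 17 at F20 and animal 6 at F23 were the lowest of their groups for the members at ranks 1, 2 and 4, and at ranks 2 and 4 their levels overlapped those of the later libraries of run 3.

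The member at rank 3 (ENSOCUG00000017458) had 42.8, 11.4, 19.7 and 5.92 CPM at F20 and 14.6, 22.3, 7.73 and 24.2 CPM at F23. In run 3 it then had 10.2 CPM at F25, 2.69 and 2.85 CPM at F28, 3.53, 1.97 and 5.08 CPM at T31, between 1.29 and 2.74 CPM at T37, and 3.71, 1.38 and 5.68 CPM at T42. All 8 pseudoglandular libraries were above these F28, T31, T37 and T42 libraries, the closest being 5.92 CPM at F20 and 5.68 CPM at T42, and F25 fell within the pseudoglandular range. More even between animals was the member at rank 5, with 5.13, 5.20, 6.14 and 5.37 CPM at F20 and 5.59, 4.03, 3.45 and 3.43 CPM at F23. It had 0.398 CPM at F25 and at most 1.57 CPM in the later libraries of run 3, and the groups did not overlap.

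The abundant members stayed abundant. The member at rank 9 had 865, 699, 767 and 755 CPM at F20 and 711, 843, 731 and 731 CPM at F23, against 299 and 302 CPM at F28, 248, 338 and 241 CPM at T31, 345, 278, 293 and 296 CPM at T37 and 275, 247 and 291 CPM at T42. Its F25 library in run 3, at 520 CPM, lay below all 8 pseudoglandular libraries and above all of these later libraries. The most abundant member, at rank 142, had 1815, 2116, 1550 and 2044 CPM at F20 and 1094 and 1299 CPM at F28, and 1501 CPM at F25. Between animals, the median SD of a member was 0.18 at F20 and 0.16 at F23 on the log2 scale, and 15 members exceeded 0.5 at F20.

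Libraries of run 3 that the rule did not use were compared with F20 and F23 in the same way. The single F25 library, of an animal whose run 1 library entered the limit on F25 and F29, lay below all 8 pseudoglandular libraries for 131 of the 150 members, against 34.9% of the 6046 genes. The 2 T35 libraries did so for 142 members (39.7% of the 6046 genes), and the P7 library of a preterm pup for 144 (43.6%). All of these libraries did for 123 members. The share of the 6046 genes was not counted for this joint condition, so no excess is read from it. The comparison shares the F20 and F23 libraries with the rule, and with 1 or 2 libraries a group it has no test.

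Against the lower pseudoglandular group, the median member differed by -0.58 in the F25 library, -1.22 at T35 and -1.06 in the P7 library. Over all 6046 genes these medians were -0.03, -0.19 and -0.14. The F25 library of this animal lay above T35 and P7 at the median. As a share of the score, which is the fall to the highest later group and therefore the smallest of the falls, the fall to F25 was 76.9% at the median, with quartiles of 51.4% and 114%. It was at least 50% for 113 members and at least 100% for 50, and the members at ranks 31, 51 and 111 were higher at F25 than in the lower pseudoglandular group. In the P7 library of run 3 the member at rank 13 stood out at 9.77 CPM, against 1.00 and 0.775 CPM in the P7 libraries of run 2.

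**Figure D3:**
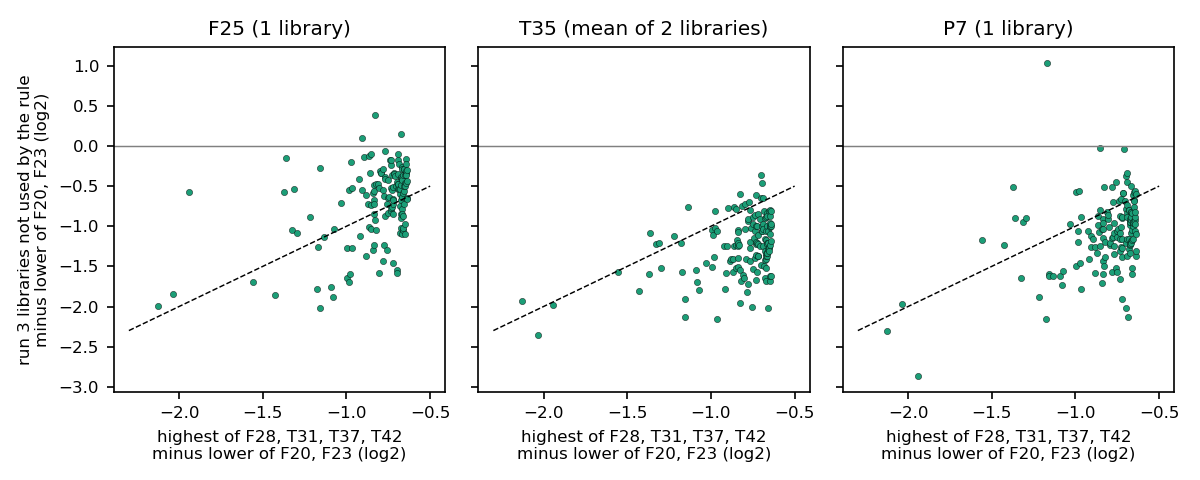
Each point is a member; the horizontal axis is the score of the rule with its sign turned, and the vertical axis the F25, T35 or P7 libraries of run 3 minus the lower of F20 and F23, both as log2(CPM + 1) differences. The dashed line marks equality and the grey line 0; all but 3 members lie below 0 at F25 and all but 1 in P7.

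Of the forms of the rule that were tried, leaving out the limit on F25 and F29 changed the list most. In run 1 the median member was 0.38 higher at F25 than at F29, 142 of 150 were above 0, and 68 were at least 0.4, close to the limit of 0.5, against 9.4% of the 6046 genes. From F25 to F27 the median member went lower again, with F25 0.19 above F27. Without the limit on run 1, only 4 of the 150 stayed in the top 150. That list scored 1.49 to 5.38, and 140 of its genes fell by at least 0.5 from F25 to F29, with a median of 1.83. The members are genes of a small early step whose F25 and F29 levels in run 1 stayed within the limit. Genes with deeper declines between these days were left out by it. The limit does not cover other days. In run 3 the median member was -0.58 from the lower pseudoglandular group in the F25 library and -1.22 at T35, so the levels did not simply hold after F25.

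Levels in run 1 cannot be set against F20 and F23 directly. Runs 1 and 3 both read 5 animals, namely 2 of F28, 2 of T35 and 1 of F25. The median member differed by 0.06 between these runs, but single members differed by -1.13 to 2.61. Run 1 was at least 0.5 higher for 51 members and at least 0.5 lower for 23 (29.1% and 19.8% of the other genes that met the limits), and 94 members (62.7%) had the same sign in all 5 animals, against 71.1% of those other genes. Largest was the difference of the member at rank 15: the F25 animal had 24.4 CPM in run 1 and 0.929 CPM in run 3, against at least 4.14 CPM in each pseudoglandular library. For 45 members the F25 mean of run 1 was at or above the lower pseudoglandular group of run 3. For 45 members it was at or below the highest later group of run 3. These counts were not made over the other genes that met the limits.

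**Figure D4:**
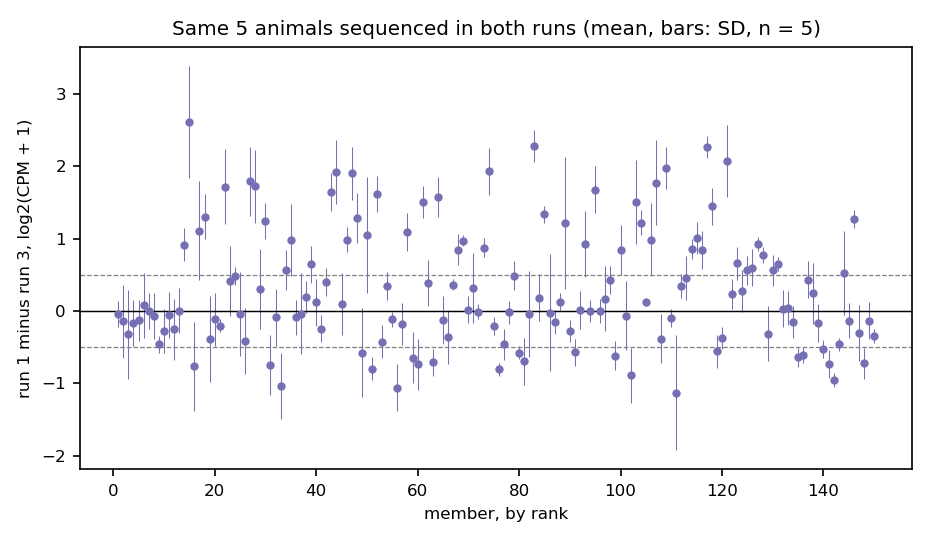
Difference between run 1 and run 3 for each member (points, by rank) in the same 5 animals, as log2(CPM + 1) mean with SD (n = 5); dashed lines mark 0.5 in either direction. The lowest value, -1.13, belongs to rank 111 and the highest, 2.61, to rank 15.

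The quasi-likelihood test of edgeR was run on 19 libraries of animals that the rule did not use, 1 per animal, with the run as a term and p-values adjusted over 14572 genes by the Benjamini-Hochberg method. Calls needed an adjusted p no higher than 0.05 and more than a 2-fold change, and all but 1 of the members had enough counts to be tested. At birth against F27, all in run 1, 3 members (2.01%) were called, all lower at T31, where 5.59% of all genes were called and 2.42% were called lower. The median log2 fold change was -0.22 for the members and 0.01 for all genes. At an unadjusted p under 0.05 there were 43 members, 39 of them lower (26.2% of members), against 24.3% of all genes in either direction and 10.9% lower. With the adjusted p alone, 11 members passed, where 9.55% of all genes did. DESeq2 called 4 members and 903 of the 14572 genes, and limma-voom 2 members and 710 genes.

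The member at rank 89 had 23.0, 25.0 and 24.8 CPM at F27 and 9.94, 9.56 and 13.2 CPM at T31. The groups did not overlap, and the log2 fold change was -1.09 (SE 0.24, edgeR adjusted p = 0.0103). The member at rank 3 had 5.21, 3.25 and 14.7 CPM at F27 and 1.63, 1.82 and 1.54 CPM at T31, a log2 fold change of -2.14 (SE 0.50, edgeR adjusted p = 0.0138). One F27 animal, number 11, was far above the others; without it the log2 fold change was -1.28 and the edgeR adjusted p = 0.0702. At rank 47 the member had 49.2, 38.5 and 40.3 CPM at F27 and 15.9, 15.6 and 28.6 CPM at T31, with a log2 fold change of -1.03 (SE 0.28, edgeR adjusted p = 0.0272). Its groups did not overlap, but the call was lost without F27 animal 1 (adjusted p = 0.114) or 7 (0.0537) or T31 animal 1 (0.098) or 10 (0.109). Over all alternatives the adjusted p was between 0.000595 and 0.0476 for rank 89, 0.00165 and 0.0702 for rank 3, and 0.00459 and 0.114 for rank 47. Without T31 animal 15, 6 members and 1014 of 14520 genes were called. In run 1 fitted alone 1 member and 524 of 13793 genes were called.

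Within run 1, the median member differed from F27 by -0.29 at T31 and by -0.37 at T35 (-0.04 and -0.13 over all genes meeting the limits). At T35, 49 members were at least 0.5 below F27 (32.7%), against 13.5% of the 6046 genes. From T31 to T35 no member was called by edgeR, DESeq2 or limma-voom, where edgeR called 0.755% of all genes and 9 members (6.04%) against 10.2% of all genes had an unadjusted p under 0.05. With the run as a term this fold rests on T35 animal 1 alone, the single T35 library of run 1 in the fit, whose spread is taken from the other groups. With the run 1 libraries of all 3 T35 animals, fitted in run 1 alone, edgeR called 0 members and 21 genes, 16 members and 1741 genes had an unadjusted p under 0.05, and the median log2 fold change of the members was -0.06.

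Preterm pups were compared with term pups at matched age from conception, not at matched days after birth. P7 pups were kept 7 days and T35 pups 4, and P3 pups 3 days against newborn T31 pups. The paper adds that preterm pups received formula, whereas term pups were born naturally and stayed with their mothers. These differences and prematurity cannot be told apart here. At P7 against T35, both 35 days after conception, no member was called by edgeR, DESeq2 or limma-voom, where edgeR called 0.0343% of all genes. The unadjusted p was under 0.05 for 9 members (6.04%) and for 7.86% of all genes, and the median log2 fold change was 0.05 for the members. The fold rests on the 2 P7 and 2 T35 libraries of run 2, since the third P7 animal was read in run 3 and the third T35 animal entered from run 1. Rank 38, the member with the smallest p, had 5.60 and 4.78 CPM at P7 and 8.89 and 9.89 CPM at T35 in run 2. These libraries did not overlap, and the log2 fold change was -0.99 (SE 0.30, edgeR adjusted p = 0.345). At P3 against T31, no member was called by these tools and edgeR called 0.00686% of all genes, while 6 members (4.03%) and 8.23% of all genes had an unadjusted p under 0.05. These groups share no run, so that the comparison rests on the run term and, through it, on T35 animal 1. There the smallest p among members belonged to rank 5, with 5, 5 and 3 counts at P3 and 1, 1 and 0 at T31 (edgeR adjusted p = 0.171).

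Over the week after preterm delivery, from P0 to P7, no member was called by edgeR or limma-voom. DESeq2 called 1 member and 550 of 14572 genes, and edgeR called 3.14% of all genes. The median log2 fold change was -0.11 for the members and -0.01 for all genes. All 18 members with an unadjusted p under 0.05 (12.1%) were lower at P7, where 16.1% of all genes had such a p and 7.68% were lower. With the adjusted p alone, 2 members passed, at ranks 117 and 118, where 4.1% of all genes did. In run 2, which holds 3 P0 and 2 P7 libraries and gives the fold, rank 117 had 44.7, 41.5 and 34.2 CPM at P0 and 23.7 and 23.1 CPM at P7. These libraries did not overlap, and the log2 fold change was -0.84 (SE 0.20, edgeR adjusted p = 0.0266), short of a fold of 2. Its edgeR adjusted p was 0.0881 without P0 animal 4, 0.0835 without P0 animal 1 and 0.0214 without P0 animal 3. For rank 118 these values were 0.132, 0.0849 and 0.0465. Leaving out P7 animal 3 or 4 leaves a single P7 library to give the fold, so that no adjusted p is given. The log2 fold change of rank 117 was then -0.832 or -0.856, and that of rank 118 was -0.705 or -0.902. Both members therefore rest on few P7 animals as well. The change from P3 to P7 minus that from T31 to T35 also rests on T35 animal 1; edgeR called 0 of the members tested and 0 of 14572 genes, and it had an unadjusted p under 0.05 in 8 members and 1001 genes.

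**Figure D5:**
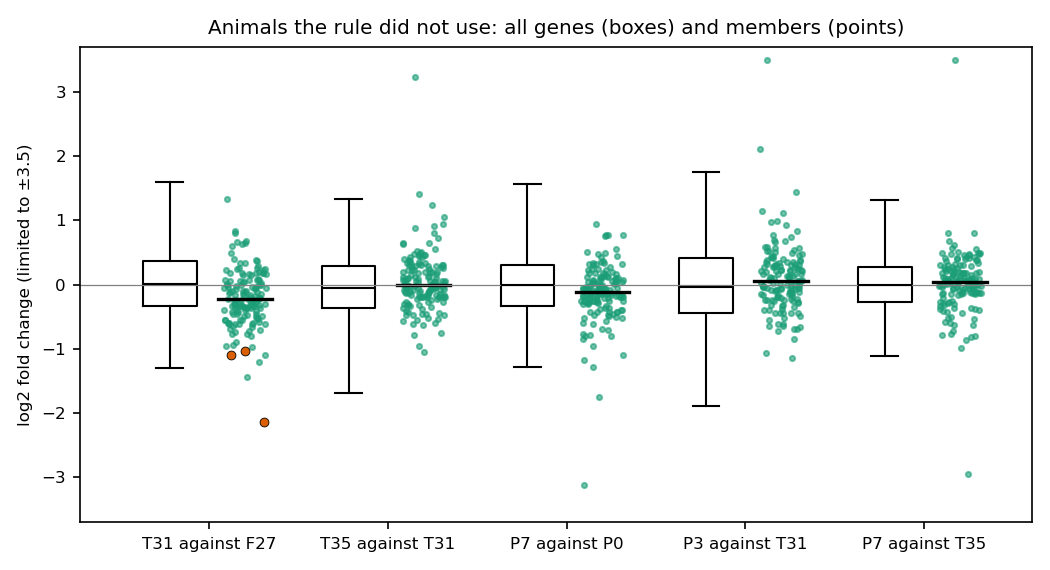
Log2 fold changes in 19 animals the rule did not use, for 5 comparisons. Boxes show all 14572 genes (median, quartiles and the 5th to 95th percentile), points the members tested (limited to 3.5 in either direction) with their median as a line, and large points the 3 called members, all lower at T31 than at F27.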

How the data were processed

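The authors made the libraries with a 3′ end kit, used STAR for alignment to OryCun2.0 and HTSeq for the gene counts; versions are not given in the sources used here. The deposited counts are whole numbers per Ensembl gene without normalization. Columns were mapped to samples by the library codes that end their labels, and groups and animals came from the labels. The labels do not state a run. Libraries whose codes start alike were taken as the same run, so the run of a library is inferred. The members and lists were chosen with earlier results of these data known. CPM values used library totals. Precision is limited by 5771693 to 8073755 counts per library, and no molecular identifiers mark separate molecules. P-values measure the spread between animals of a group, pooled over the groups of the fit. Where a fold rests on T35 animal 1, the spread is taken from the other groups. The methods describe a different dam for each lung at a time point, and do not say whether time points shared dams.

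The fit used edgeR 4.0.16 in R 4.3.3 with TMM factors, genes with at least 0.5 CPM in 3 libraries, and the run as a term. Limma 3.58.1 and DESeq2 1.42.0 were alternatives, with others on scaling, filters, runs and animals. The edgeR fit was tried on simulated data with 200 changed genes, for P7 against T35 alone and with no run effect simulated. The alternatives, the other comparisons and the rule were not tested in this way. The rule for named members took the 20 at the top of the list, the 5 highest at F20, at T35 in run 3 and at F25 in run 1, the most and least variable between animals, those at the edge of the list and those called; the members at ranks 31, 38, 51, 93, 111, 117 and 118 were chosen after their values were seen. The gene lists planned for naming pathways and cell types, and sequence features, could not be matched to identifiers and were not analysed here.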

Additional observations from a re-analysis of the deposited data

Results flagged for a closer look

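Over groups of 4 libraries (F20, F23 and T37), the members' share of counts and the members at ranks 1 to 20 were searched for an animal far from the others, in 63 groups of values. The member at rank 9 was set apart in F23 animal 22, with 843 CPM against 711 to 731 CPM in the other 3 animals, a gap of 0.835 of the range on the log2 scale. Chance alone flags about 1 in 20 such groups.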

How the results depend on the processing

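Other forms of the rule kept 91 of the 150 members with TMM library sizes, 26 with limits of 1 and 4 without the run 1 limit, and between 122 and 137 when an F20 or F23 animal or the T31 library of animal 18 in run 3 (chosen after seeing the data) was left out. From P0 to P7, 1 member was called with DESeq2 (550 of 14572 genes) and 1 with no run term (534 genes). Run 2 alone gave 1 member (584 of 13708 genes) and the adjusted p alone 2 (597 of 14572 genes). A replicate block by number over the preterm animals gave 1 member and 424 genes, against 0 and 545 for these animals without it (added after seeing the data); the numbers correlated by 0.085, 0.135 and 0.061, so that they were not taken as pairs. For T31 against F27 the count was 11 with the adjusted p alone (1392 of 14572 genes) and 1 in run 1 alone (524 of 13793 genes). With no run term 21 members and 2407 of 14572 genes were called at P3 against T31. At T35 against T31 it was 5 members and 819 genes. Without that term the member at rank 93 reversed to -1.04 in P3 against T31 (no call). Leaving out 1 animal gave 2 to 6 members (433 to 1014 genes) in T31 against F27 and 0 to 1 (249 to 454 genes) in P7 against P0. It gave 0 members in the other comparisons. Without T35 animal 1, P3 against T31 and T35 against T31 could not be fitted. Counts at P7 against T35 did not leave 0. Where members are low, a few counts decide the value.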
